A study of Mus musculus with 11 samples.

Results

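Rbpj (also called CSL) is the DNA-binding protein through which Notch signalling reaches its target genes. Of 20993 Rbpj peaks called in a mouse T-cell leukaemia line, 1114 (5.31%) overlapped by at least 1 bp a broad segment of one histone library, and these peaks are described here as Rbpj sites in Polycomb-like segments. The members were therefore chosen from measured values, namely the authors' Rbpj peak calls and the authors' segment calls, and the count, the Rbpj enrichment and the strength of these segments are descriptions of that choice. The remaining 19879 Rbpj peaks lay outside such segments.

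The study used ChIP-seq, the sequencing of DNA precipitated with an antibody, on the line 8946 after retroviral transduction with an epitope-tagged Zmiz1, a coactivator of the PIAS-like family, and with an activated Notch1, followed by sorting on both marker proteins. All cells of both lines thus carried tagged Zmiz1 and activated Notch1, and no untransduced cells were used here as a control. The Flag line carried Flag-Zmiz1 and the Notch1 construct named L1601PDP, and supplied the libraries for Rbpj, H3K4me3, H3K4me1, both H3K27 marks, Flag-Zmiz1 and ICN1, the intracellular active form of Notch1. The HA line carried HA-Zmiz1 and the construct named DEGFDLNRDP, and supplied libraries for HA-Zmiz1 and ICN1, so any overlap of a member with an HA-line peak compares different lines and different Notch1 constructs. Chromatin was fixed with DSG and formaldehyde for factors and with formaldehyde alone for histone marks. Each target had 1 library per line, so replicate error is unknown throughout and no test of a condition was possible.

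Polycomb complexes are chromatin regulators that place and read trimethylation of lysine 27 on histone H3 and keep developmental genes silent in cell types that do not need them. H3K4me3 marks gene starts, H3K4me1 marks enhancers and the flanks of starts, and H3K27ac marks active starts and enhancers. Chromatin that carries both H3K4me3 and H3K27me3 is usually called bivalent. In T-cell leukaemia, Rbpj recruits ICN1 and its coactivators when Notch is active, and can sit with corepressors when it is not.

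The library labelled H3K27ac did not behave as an acetylation library at known genes. An end of 37 of 39 Hox genes, the best known Polycomb targets, lay in its segments, against 18.9% of all 21887 coding genes, while none of 20 housekeeping genes and none of 16 T-lineage marker genes had an end there. The library labelled H3K27me3 showed the reverse. Its segments held an end of 0 of the 39 Hox genes, 19 of the 20 housekeeping genes and 16 of the 16 T-lineage genes, against 43.1% of all coding genes. The segments of the library labelled H3K27ac are therefore called Polycomb-like, and those of the library labelled H3K27me3 acetylation-like. The T-lineage list, with H3K4me3 at an end of 16 of 16 genes against 46.6% of all coding genes, matched the labelled cell type.

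Depth was 19.0 M filtered tags for Rbpj against 36.4 M for its input, and 13.5 to 15.4 M for the other factor libraries. Totals of the histone libraries are not known; their segments held 3.996 M reads for the Polycomb-like mark, 8.33 M for the acetylation-like mark, 10.6 M for H3K4me1 and 11.4 M for H3K4me3. Peak fold is the authors' pileup at the summit over the local input background, and segment fold is the authors' ratio of reads to scaled control reads. The ranges in brackets after shares are exact 95% intervals (Clopper-Pearson). They hold counting error alone and treat peaks as independent although neighbours are not.

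Promoter sequences were read for members whose summit fell in the 250 bases before an annotated start, where a promoter window was at hand. Such windows matched 79.8% of coding genes. The highest −log10 p among these windows were taken within each group of other marks: 3 from each H3K4me3 group and 1 from the members in no other mark. In H3K4me3 without the acetylation-like mark, members beside Cux2 (−log10 p 84.7) and Nckap1 (45.2) exceeded Tppp (29.96) but are not in this ranking. The sequences are shown 5′ to 3′ on the strand of the gene, from RefSeq on GRCm38.p6, in lower case with each TGGGAA (the core of the Rbpj binding motif) or its complement TTCCCA in capitals. The first 3 lay in H3K4me3 without the acetylation-like mark: Otop2, a proton channel gene, at chr11:115322280-115322529 (+ strand); B3gnt4, a glycosyltransferase gene, at chr5:123508232-123508481 (+ strand); and Tppp, a tubulin-binding protein gene, at chr13:74009169-74009418 (+ strand). The next 3 lay in H3K4me3 together with the acetylation-like mark: Ddr1, a collagen receptor kinase gene, at chr17:35700591-35700840 (− strand); Etv5, an ETS transcription factor gene, at chr16:22438369-22438618 (− strand); and D430041D05Rik at chr2:104410335-104410584 (− strand). The last, Cpne4, a copine gene, at chr9:104569405-104569654 (+ strand), lay in none of the other marks.
Otop2: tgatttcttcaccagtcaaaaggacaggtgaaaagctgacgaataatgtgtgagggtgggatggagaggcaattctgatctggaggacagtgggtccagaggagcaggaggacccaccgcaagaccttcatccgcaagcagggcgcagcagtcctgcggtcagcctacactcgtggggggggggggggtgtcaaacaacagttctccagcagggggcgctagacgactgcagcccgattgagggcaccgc
B3gnt4: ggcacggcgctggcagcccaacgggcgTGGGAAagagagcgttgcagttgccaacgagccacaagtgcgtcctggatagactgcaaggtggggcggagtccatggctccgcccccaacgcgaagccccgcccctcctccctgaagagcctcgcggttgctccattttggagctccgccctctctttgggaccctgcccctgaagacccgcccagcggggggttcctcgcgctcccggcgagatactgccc
Tppp: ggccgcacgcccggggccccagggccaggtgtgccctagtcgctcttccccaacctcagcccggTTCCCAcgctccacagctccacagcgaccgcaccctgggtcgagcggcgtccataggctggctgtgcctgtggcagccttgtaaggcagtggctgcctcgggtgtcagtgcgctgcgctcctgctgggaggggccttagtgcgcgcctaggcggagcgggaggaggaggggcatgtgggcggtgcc
Ddr1: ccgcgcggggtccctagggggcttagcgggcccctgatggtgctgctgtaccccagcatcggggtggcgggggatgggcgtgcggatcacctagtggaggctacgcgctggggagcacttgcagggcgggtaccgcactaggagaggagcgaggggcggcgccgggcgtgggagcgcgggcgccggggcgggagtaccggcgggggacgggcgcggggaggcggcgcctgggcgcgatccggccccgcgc
Etv5: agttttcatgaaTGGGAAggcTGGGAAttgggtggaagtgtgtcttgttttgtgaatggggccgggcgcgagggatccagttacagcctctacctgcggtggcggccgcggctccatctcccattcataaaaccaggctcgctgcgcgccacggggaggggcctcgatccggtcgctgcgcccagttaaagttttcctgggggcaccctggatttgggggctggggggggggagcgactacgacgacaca
D430041D05Rik: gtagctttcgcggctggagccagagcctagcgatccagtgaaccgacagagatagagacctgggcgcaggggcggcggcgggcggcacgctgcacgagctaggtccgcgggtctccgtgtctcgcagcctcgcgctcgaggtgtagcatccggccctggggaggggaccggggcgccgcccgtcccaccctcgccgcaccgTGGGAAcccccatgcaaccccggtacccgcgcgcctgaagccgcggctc
Cpne4: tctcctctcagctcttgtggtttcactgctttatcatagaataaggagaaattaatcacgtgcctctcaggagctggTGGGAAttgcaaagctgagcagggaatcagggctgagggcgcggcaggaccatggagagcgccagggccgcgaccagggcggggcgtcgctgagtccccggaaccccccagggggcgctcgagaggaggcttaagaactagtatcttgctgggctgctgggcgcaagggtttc

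In the B3gnt4 promoter the Rbpj summit, at base 32 of the window, lay inside the core, which starts at base 28. Distances from a summit run to the third base of a match as printed. The core of D430041D05Rik was 10 bp from the summit. Etv5 held 2 cores, the nearer at 4 bp from the summit. In Tppp the core was 42 bp from the summit and in Cpne4 106 bp. The matches in B3gnt4, Tppp, D430041D05Rik and Cpne4 were also preceded by the G of the longer form GTGGGAA, while those of Etv5 were not. The letters were not in the shown windows of Otop2 and Ddr1, although their Rbpj folds of 23.9 and 26.6 exceeded the fold of 17.8 at B3gnt4 and 14.7 at Tppp. They were not in the windows next in rank in the H3K4me3 groups either, at Tigar (Rbpj fold 12.2) and Adamts20 (17.5), which are not printed.

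Over all members, 237 RefSeq promoter windows of 300 bases (250 before and 50 after the start, for 225 genes) held a member summit. TGGGAA on either strand occurred in 66 of them (27.8%, 22.2 to 34.0), beside 24.5% of all 21238 windows and 22.7% (21.6 to 23.9) of 5429 windows with an Rbpj summit outside Polycomb-like segments. The longer GTGGGAA, each match of which is also a TGGGAA match, occurred in 21 member windows (8.86%, 5.57 to 13.2) beside 6.07% of all windows. Among members the share was higher at stronger peaks, with intervals that overlapped. In the upper 25% by −log10 p, 24 of 59 windows had TGGGAA (40.7%, 28.1 to 54.3), against 42 of 178 in the rest (23.6%, 17.6 to 30.5). A core lay within 50 bp of the summit in 16 of the 59 (27.1%) and 15 of the 178 (8.43%). Windows with Rbpj summits outside the segments had the same order, with TGGGAA in 30.8% of their upper 25% and 20.1% of the rest, and a core within 50 bp of the summit in 20.04% and 8.50%. The 3 other motifs, searched on both strands, gave 12.2% of member windows for the Runx-type letters TGTGGT (14.97% of all windows), 65.4% for the E-box CANNTG (69.0%) and 94.1% for the ETS core GGAA (95.7%), which TGGGAA contains. Member windows had a median GC content of 66.3%, against 63.0% for windows with other Rbpj summits and 56.3% for all, and the part of base composition in these shares was not tested.

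The Rbpj signal at the members was of ordinary strength for this library. Their median fold was 6.23 (quartiles 5.17 to 7.78, range 1.81 to 35.2), beside 6.47 (5.38 to 8.17) over all Rbpj peaks, and their median length was 107 bp beside 129 bp. Of the 1114, 1048 lay wholly inside a segment and 66 crossed its edge. Those 66 had folds of 3.89 to 25.5 with a median of 6.65, and the 177 Rbpj peaks just outside, within 200 bp of an edge, had folds of 3.33 to 35.1 with a median of 6.62.

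Most members also lay in H3K4me3. Of the 1114, 790 (70.9%, 68.2 to 73.6) overlapped an H3K4me3 segment, against 87.3% of all Rbpj peaks and 88.2% of those outside. H3K4me1 covered 605 members (54.3%, 51.3 to 57.3), close to its background of 57.8%. The acetylation-like mark gave the widest gap, with 364 members (32.7%, 29.9 to 35.5) against 86.2% of all Rbpj peaks and 89.2% of those outside. Members were chosen by the other H3K27 library, and the part of that choice in this gap was not tested. A gene end lay within 1 kb of 473 members (42.5%), near the background of 44.3%. Within 5 kb it was 743 members (66.7%, 63.8 to 69.5) against 59.2% (58.5 to 59.9) outside, so the comparison depends on the distance. In all, 592 summits (53.1%) fell within the span of a coding gene. Exon, intron and UTR positions were not used here.

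**Figure D1:**
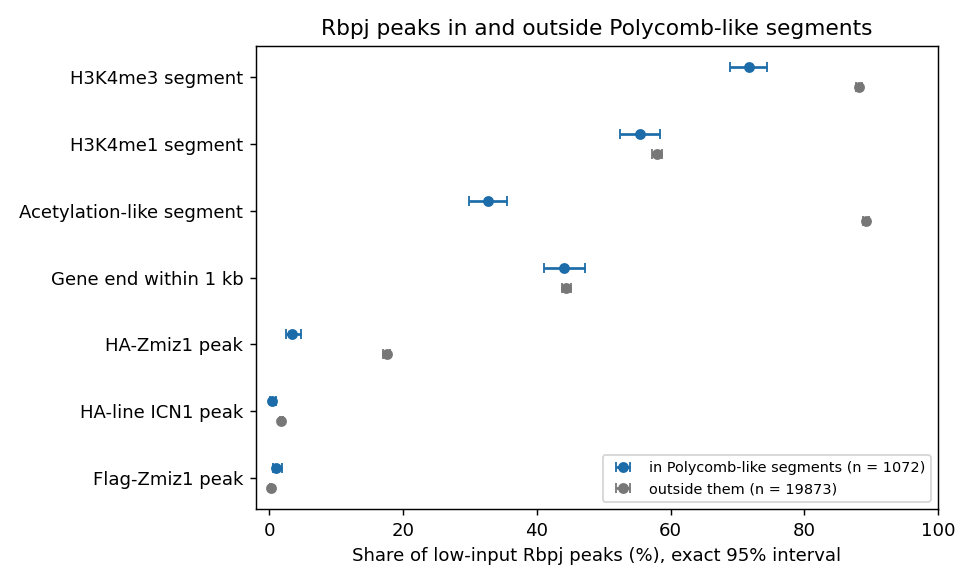
Share of low-input Rbpj peaks (x axis, %) that overlap each histone segment, a gene end within 1 kb or another factor's peak (y axis), for the 1072 members (blue) and 19873 other peaks (grey), with exact 95% intervals from 1 library per target. The members sit far below the other peaks for the acetylation-like mark and for HA-Zmiz1, and at the same level for gene ends.

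The marks divided the members into groups of very unequal size in and outside Polycomb-like segments. H3K4me3 without the acetylation-like mark held 433 members (38.9%), whereas 588 of the other Rbpj peaks (2.96%) carried H3K4me3 without that mark. H3K4me3 with the acetylation-like mark held 357 members (32.0%) against 16947 other peaks (85.3%). H3K4me1 alone held 85 members (7.63%) against 2.73%, and 232 members (20.8%) lay in none of the other marks, against 5.13%. The last 7 members had the acetylation-like mark without H3K4me3. All 4 marks, the Polycomb-like one included, overlapped 219 members.

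The members with and without the acetylation-like mark differed in where they sat. In H3K4me3 without it, the Polycomb-like segment had a median width of 10.8 kb and a fold of 3.33, and the Rbpj summit lay a median of 3.10 kb inside the nearer edge. With both H3K4me3 and the acetylation-like mark the segment was 6.6 kb wide with a fold of 2.43, and the summit lay 1.37 kb from the edge. In the first group 73 summits (16.9%) were within 1 kb of an edge or beyond it, in the second 140 (39.2%). Gene ends were within 1 kb of 208 of the 433 (48.0%, 43.2 to 52.9) and of 231 of the 357 (64.7%, 59.5 to 69.7), but of 5.88% of members in H3K4me1 alone. Segment fold belongs to the choice of members and the distance depends on segment width, so both are given as descriptions.

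**Figure D2:**
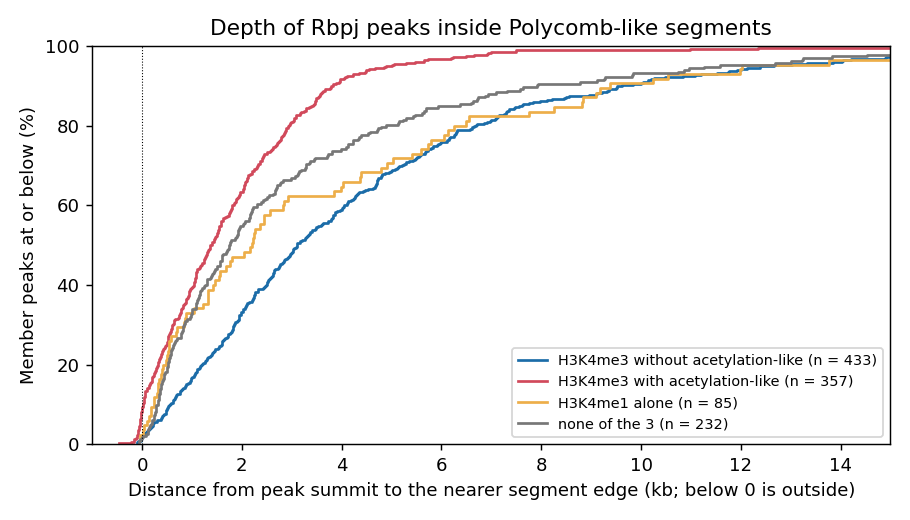
Cumulative share of member peaks (y axis, %) by distance of the summit from the nearer edge of the Polycomb-like segment (x axis, kb, drawn to 15 kb, below 0 outside the segment), 1 line per mark group, leaving out the 7 members with the acetylation-like mark and no H3K4me3. Members with the acetylation-like mark reach 50% at 1.37 kb and those in H3K4me3 without it at 3.10 kb.

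Where members had another mark, that mark was often weaker and narrower than at other Rbpj peaks. The H3K4me3 segments of members had a median fold of 9.47 and a width of 2.2 kb, against 12.2 and 3.4 kb outside. The acetylation-like segments of members had a fold of 2.82 and a width of 1.8 kb against 4.47 and 4.8 kb, and their H3K4me1 segments 2.19 and 3.2 kb against 3.05 and 6.8 kb. Within the mark groups the difference in H3K4me3 was not the same. With the acetylation-like mark its median fold was 12.4 both for members and outside, and without it the fold was 6.55 for members and 4.18 outside.

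The strongest members with H3K4me3 lay at genes of varied function. At Bicdl1, a gene for a motor adaptor protein, the peak at chr5:115732604-115733075, 0.92 kb from the gene, had an Rbpj fold of 35.2 in a segment of Polycomb-like fold 1.49. At Cux2, a homeobox transcription factor gene, the peak at chr5:122050401-122050607 had a fold of 32.9 in a 13.6 kb segment of fold 4.39, with H3K4me3 at fold 4.94 and no acetylation-like segment. These were the 2 highest folds among the members, at segments of very different Polycomb-like fold. Ddr1 had an Rbpj fold of 26.6, D430041D05Rik 24.9, and Nfic, a nuclear factor I gene, 24.2. Dzank1 had 23.8, Etv5 21.4 and Xirp1, an actin-binding protein gene, 17.4. The peak at Ush1g and Otop2 had 23.9, with H3K4me3 at a fold of only 1.70. The peak of 25.5 nearest Nufip1 and the peak at Dzank1 each crossed a segment edge with the summit outside.

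Without H3K4me3, the strongest members were often far from genes. The peak of fold 29.3 nearest Aldoart2 was 28.3 kb from it, and the peak of 18.2 nearest Cd34, a surface marker gene of blood progenitors, was 15.1 kb away. Members with the summit inside a gene were found at Spry4 and Zbtb46. Spry4, which encodes an inhibitor of receptor kinase signalling, had a fold of 15.8, with the summit 9 bp from a gene end. Zbtb46, a transcription factor gene of dendritic cells, had 14.9, with the summit 39833 bp from a gene end. The peak of 25.3 near Ctdp1 and those at Cfdp1 and near Fabp4 also held a peak of another factor, given with those factors. A peak of 14.99 nearest Cdk12 lay in the 53.0 kb segment that covers Neurod2, a neuronal transcription factor gene. The other 4 of the 12 strongest had high local input: 3 peaks over 100 kb from Esp38 with folds of 3.02 to 3.55, and 1 in Cdk8 with 3.64.

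**Figure D3:**
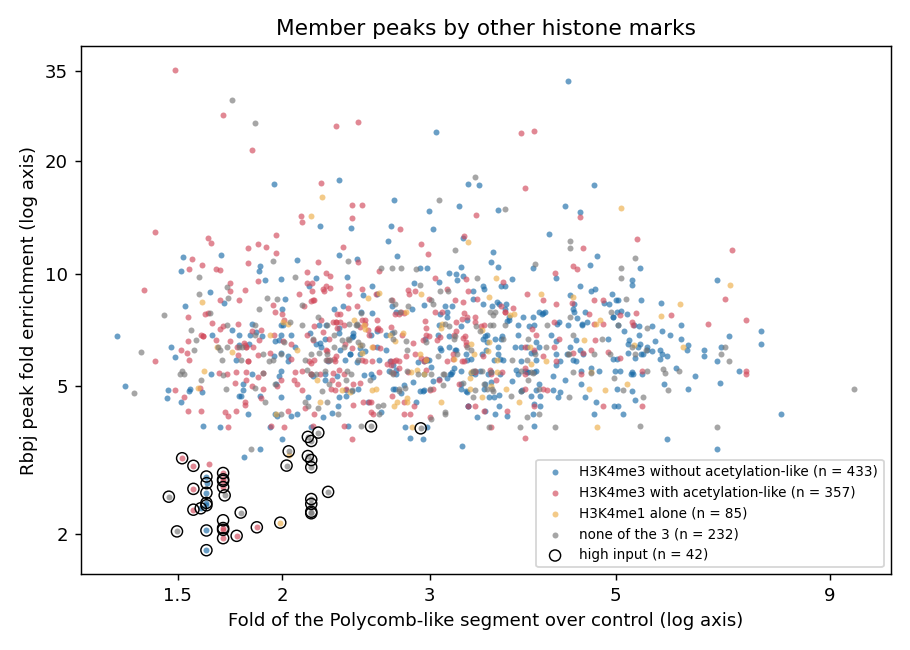
Rbpj fold enrichment of each member peak but the 7 with the acetylation-like mark and no H3K4me3 (y axis, log scale) against the fold of its Polycomb-like segment over control (x axis, log scale), coloured by the other marks, with black circles around the 42 members of high local input. The high-input members lie at the bottom left, and the 2 peaks with folds over 30 sit at segment folds of 1.49 and 4.39.

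Among genes of the Notch pathway, receptors and ligands had members at 3 of 14, against 3.98% of all coding genes with a member within 5 kb. A Polycomb-like end was also more frequent in this list, at 8 of 14 (57.1%) against 18.9% of all coding genes. Of those 8, 3 (37.5%) had an Rbpj peak within 5 kb, near the 37.4% of all coding genes with a Polycomb-like end. Notch1 itself, the receptor, had 2 Rbpj peaks within 5 kb, both members. The stronger, at chr2:26502300-26502537 inside the gene span near one end, had a fold of 15.8 in a 5.0 kb Polycomb-like segment of fold 2.72, with H3K4me3 at fold 13.0. This peak overlapped no acetylation-like segment, but the ends of Notch1 also had acetylation-like and H3K4me1 segments, of fold 3.41 and 3.83. Dll4, a Notch ligand, had a member of fold 8.50 inside a stronger, 15.6 kb segment of fold 5.03, with H3K4me3 at 2.84. Notch3, another receptor, had 4 Rbpj peaks within 5 kb, with a highest fold of 18.7, but its 1 member had a fold of 6.56. That member lay inside the gene in a 2.6 kb Polycomb-like segment of fold 2.24, with 59 reads against 48 control reads. It also lay in a 12.8 kb acetylation-like segment of fold 4.37 and an H3K4me1 segment of fold 3.85, without H3K4me3.

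The list of Notch targets had an Rbpj peak within 5 kb at 20 of 26 genes, against 48.7% of coding genes. A Polycomb-like end was present at 12 of the 26 (46.2%), against 18.9% of coding genes. Of those 12, 8 (66.7%) had an Rbpj peak within 5 kb, against 37.4% of all coding genes with such an end. A member lay within 5 kb of 4 genes of the list. These were the Hes-family repressor genes Hes2 (Rbpj fold 8.37) and Hes7 (6.47), Gata3, a T-cell transcription factor gene (6.78), and Bhlhe40, a basic helix-loop-helix repressor gene (6.68). The Gata3 peak crossed a segment edge, with its summit 0.024 kb inside. Several well known targets had no member. Hes1 lay in a 22.4 kb Polycomb-like segment of fold 5.77 and Hey1 in a 7.0 kb segment of fold 3.33, neither with an Rbpj peak within 5 kb. Nrarp, a feedback inhibitor of Notch, had no Rbpj peak there either, with Polycomb-like and H3K4me3 segments of fold 6.31 and 6.50 at its ends. Hes5 lay in a 19.0 kb segment of fold 5.92, and its 2 Rbpj peaks, the higher at fold 6.90, were outside it. Dtx1, a Notch-regulated ubiquitin ligase gene, had 3 Rbpj peaks, one of fold 49.7, all outside the Polycomb-like segment at its end.

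The other fixed genes had no member. Il2ra, the interleukin-2 receptor alpha chain gene, had 2 Rbpj peaks and a Polycomb-like end of fold 1.94. Myc had 6 Rbpj peaks and Ptcra, the pre-T-cell receptor alpha gene, had 1, and neither had an end in a Polycomb-like segment. Of 20 genes for Rbpj cofactors 1 had a member, the Mastermind-like coactivator gene Maml3, with a fold of 14.7 in a 20 kb segment of fold 4.54. Of 20 genes for Polycomb proteins and H3K27 demethylases 1 did, Bmi1, with a fold of 3.89. Each count was 5% of its list, near the 3.98% of all coding genes.

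Developmental regulators lay mostly in Polycomb-like segments and mostly had no Rbpj peak. Over all coding genes, 18.9% had a Polycomb-like end, 48.7% an Rbpj peak within 5 kb and 3.98% a member within 5 kb. Of the 39 Hox genes, 9 (23.1%) had an Rbpj peak within 5 kb, and all 9 were near members. Several shared a peak. The peak at Hoxc6 and Hoxc8 (chr15:102999212-102999383) had a fold of 11.6 in a 204 kb segment of fold 6.89. The peak near Hoxa7 and Hoxa9 (chr6:52221747-52221872) had a fold of 9.61 in a segment of 126 kb, and the peak near Hoxb3, Hoxb5 and Hoxb6 had 5.83 in a segment of 145 kb, both of fold 6.60. Hoxb8 had a peak of 3.87 in that same Hoxb segment, with no H3K4me3.

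Of 60 homeobox and paired genes outside the Hox clusters, 50 had a Polycomb-like end, 13 an Rbpj peak and 6 (10.0%) a member. The member share over all coding genes was 3.98%. Among the 6 were Barhl1 (fold 9.49), Isl2 (8.09), Lhx4 (4.67), Meis2 (4.67) and Dlx2 (4.42). The Dlx2 peak crossed a segment edge with its summit outside. Of 62 other developmental transcription factor genes, 48 had a Polycomb-like end and 9 (14.5%) a member. The highest folds there were at Gata2, a blood stem cell factor gene, with 8.50, and at Eomes, a T-box factor gene of cytotoxic lymphocytes, with 8.17. Gli1, the hedgehog effector gene, had 6.84 and Tbx2 6.80. Neurog2 and Tfap2c each had a peak of fold 6.07, with a pileup of 9 reads. Klf4 had a fold of 5.38, and Tfap2a 5.46 in a segment of fold 7.01. H3K4me3 without the acetylation-like mark was strong at the Tfap2a peak, with a fold of 12.6, and weak at Tbx2 and Meis2, with 2.05 and 2.09. Of 42 genes for Wnt, Fgf, Bmp and hedgehog ligands, 32 had a Polycomb-like end and 8 (19.0%) a member, led by Wnt10a (10.98), Fgf9 (7.79) and Wnt1 (7.14). The others were Fgf11 (6.48), Wnt9a (6.07), Inhbb, an activin subunit gene (5.46), Wnt7b (4.85) and Wnt6 (4.58). Wnt6 and Wnt10a lie in the same 56.8 kb segment of fold 5.27, but only the Wnt6 peak was in H3K4me3. That H3K4me3 segment was weak, at fold 2.05 with 36 reads against 27 control reads.

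Of 40 neuronal and ion channel genes, 24 had a Polycomb-like end and 8 a member. Their folds ran from 4.40 at Cacna1b, a calcium channel gene, to 6.44 at Slc17a7, a vesicular glutamate transporter gene. Between them were Grin2d, a glutamate receptor gene (6.35), Gad1, which makes the transmitter GABA (5.84), Slc32a1, its vesicular transporter gene (5.41), and the potassium channel genes Kcnh3 (5.59), Kcnk13 (5.17) and Kcnj4 (5.15). The Slc17a7 peak crossed a segment edge with its summit outside. Among markers of other blood lineages, 2 of 8 B-lineage genes had a member. Pax5, which sets B-cell identity, had a fold of 9.28 in a 31.0 kb segment of fold 4.53, and Ebf1 a fold of 6.35 in a 30.2 kb segment of fold 5.31. Both lay in H3K4me3 without the acetylation-like mark. None of 11 myeloid marker genes, 8 cell cycle inhibitor genes and 20 housekeeping genes had a member. With 3.98% over all coding genes, lists this small would hold few members or none. Of the 11 myeloid genes, 5 (45.5%) had a Polycomb-like end, and 0 of those 5 had an Rbpj peak within 5 kb. Among all coding genes with a Polycomb-like end that share was 37.4%. No gene of the inhibitor and housekeeping lists had a Polycomb-like end, so their lack of members says little about Rbpj. An Rbpj peak lay within 5 kb of 18 of the 20 housekeeping genes. Of the 16 T-lineage genes, all had an Rbpj peak and 1, Gata3, a member.

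**Figure D4:**
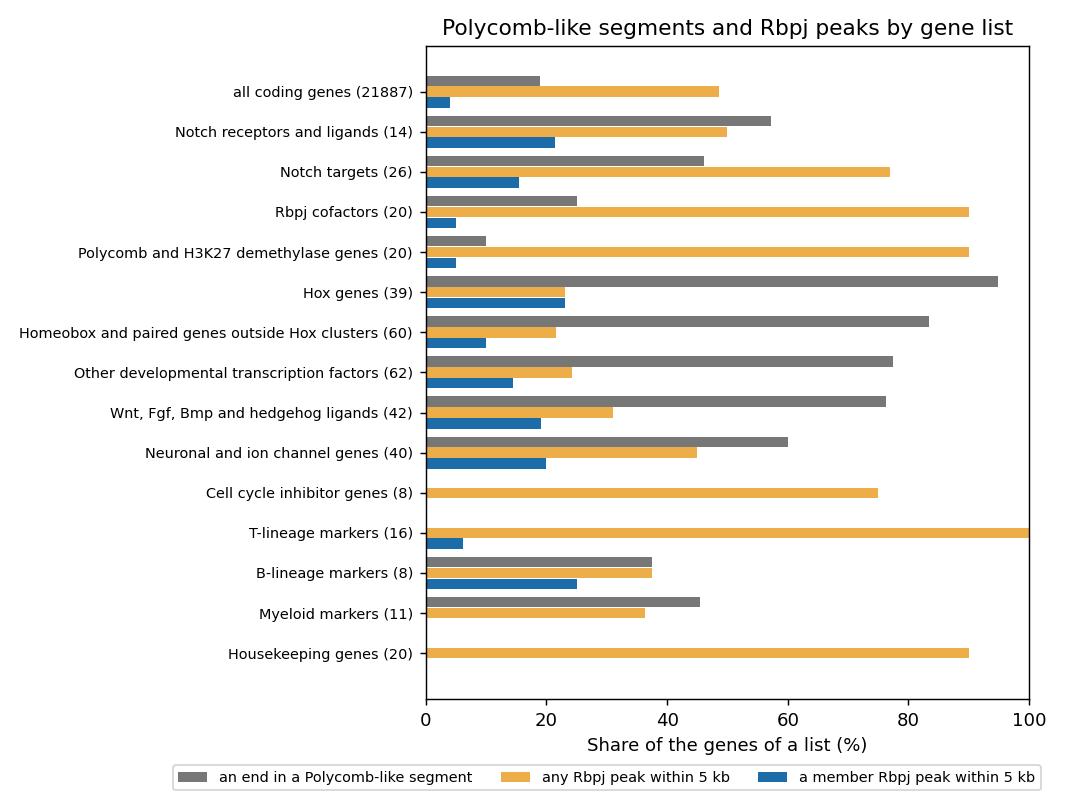
For each gene list (y axis, number of genes in brackets), the share of its genes (x axis, %) with an end in a Polycomb-like segment (grey), any Rbpj peak within 5 kb (orange) and a member within 5 kb (blue). The Hox, homeobox, other developmental and ligand lists have long grey bars and shorter blue bars of 10.0 to 23.1%, against 3.98% of all coding genes. The housekeeping list has Rbpj peaks at 18 of 20 genes, with no Polycomb-like end and no member.

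Members lay within 5 kb of 872 coding genes. Of these, 675 had a member with H3K4me3, 389 had one with H3K4me3 but no acetylation-like mark, and 156 had 2 or more members. Of the 4130 genes with a Polycomb-like end, 1544 (37.4%) had any Rbpj peak within 5 kb, less than the 48.7% of all coding genes.

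Seen from the segments, 911 of 25172 Polycomb-like segments (3.62%) held an Rbpj peak. They had a median width of 8.2 kb and a fold of 2.82, beside 4.6 kb and 2.24 for those without. The share was higher in wider classes, from 1.51% (218 of 14438) of segments up to 5 kb to 21.2% (115 of 543) between 20 and 50 kb and 47.1% (16 of 34, 29.8 to 64.9) above 50 kb. Wider segments offer more sequence, and the part of width in these shares was not tested. Members per Mb of segment were 5.06 in the narrowest class and 11.6 in the widest, which held 30 members in 34 segments. Most of the 911 held 1 member (761), and 35 held 3 or more.

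Among 5 segments with the most members, the last of which ties with 2 others at 4 members (at Ist1 and Zfp821, and at Zhx2), 3 were unlike the rest in their input. They lay at chr2:98662001-98667400 with 8 members, at chr17:39842801-39849000 with 7 and at chr14:19414801-19419800 with 6, all more than 100 kb from a coding gene, and every one of their members had high local input. The other 2 had no high-input member. The 21.0 kb segment at chr15:103165401-103186400 covered an end of Smug1, a uracil-DNA glycosylase gene, and held 6 members of fold 5.45 to 10.5. The 53.0 kb segment at chr11:98290001-98343000 covered ends of Neurod2 and Gm33099 and held 4 members of fold 7.95 to 14.99.

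High local input bears on the other factors. A peak is called high-input where the input background recovered from the authors' values was at least 10 times the library's mean, a limit chosen after the data were seen. This held for 42 members (3.77%), at 17 places, against 0.229% of all Rbpj peaks and 6 peaks outside. Their median Rbpj fold was 2.56 with local input of 15.5 to 98.7 times the mean, and 38 of the 42 also had a peak of another factor. Since 1 input served all factor libraries of a line, values for the other factors are given without these peaks as well.

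The share of members with HA-Zmiz1 was below that of other Rbpj peaks, with intervals that did not overlap. HA-Zmiz1 covered 62 of the 1114 (5.57%, 4.29 to 7.08) against 16.9% of all Rbpj peaks, and without high-input peaks 37 of 1072 (3.45%, 2.44 to 4.73) against 17.6% (17.0 to 18.1) outside. The same order held within both H3K4me3 groups. With the acetylation-like mark, 13 of 344 low-input members had HA-Zmiz1 (3.78%, 2.03 to 6.38) against 3323 of 16944 other peaks (19.6%). Without it, 14 of 425 did (3.29%, 1.81 to 5.47) against 58 of 588 (9.86%, 7.58 to 12.6). In H3K4me1 alone the intervals overlapped, with 8 of 84 (9.52%, 4.20 to 17.9) against 34 of 541 (6.28%, 4.39 to 8.67). In none of the marks they overlapped too, with 2 of 213 (0.939%, 0.114 to 3.35) against 14 of 1017 (1.38%, 0.755 to 2.30). With high-input peaks that last comparison was 14 of 232 (6.03%, 3.34 to 9.92) against 14 of 1019 (1.37%, 0.753 to 2.29). The HA-Zmiz1 library came from the HA line and the marks from the Flag line, so target and line cannot be told apart.

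The 37 low-input members with HA-Zmiz1 had HA-Zmiz1 folds of 3.20 to 10.7, and 27 were in H3K4me3. Those with the strongest Rbpj were at Cfdp1 (Rbpj fold 16.0, HA-Zmiz1 fold 6.65), at Sez6, a neuronal membrane protein gene (15.1 and 8.27), near Fabp4, a fatty acid carrier gene (14.2 and 5.52), and at Zfp821, a zinc finger gene (14.1 and 5.77). No low-input member had both HA-Zmiz1 and HA-line ICN1.

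HA-line ICN1 overlapped 30 members (2.69%, 1.82 to 3.82), against 1.84% of all Rbpj peaks. Without high-input peaks 4 of 1072 remained (0.373%, 0.102 to 0.953), against 357 of 19873 outside (1.80%), so the direction of the difference turned without these peaks. The 4 were at Nckap1, an actin regulator gene (ICN1 fold 8.48), at Lrrc43 and B3gnt4 (7.30), near Ctdp1, a phosphatase gene (6.66), and at Slc47a1, a transporter gene (7.32), which was singled out after its values were seen. The B3gnt4 peak is the one whose promoter, printed above, has its summit inside the core.

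Flag-Zmiz1 overlapped 42 members (3.77%) against 0.391% of all Rbpj peaks, and Flag-line ICN1 overlapped 35 (3.14%) against 0.276%. Without high-input peaks, 11 members with Flag-Zmiz1 were left (1.03%, 0.513 to 1.83) against 40 of 19873 outside (0.201%, 0.144 to 0.274), a higher share where that of HA-Zmiz1 was lower. For Flag-line ICN1 0 of 1072 were left, with an upper 95% limit of 0.344%, against 23 of 19873 (0.116%). None of those 11 had HA-Zmiz1. They were chosen for naming after their values were seen. The highest Flag-Zmiz1 folds were at Scrt1, a neural repressor gene (30.8), Npas4, an activity-induced neuronal factor gene (21.2), Celsr3, a neural cadherin gene (13.5), Rtbdn (12.2) and Xkr7 (10.4). Lower folds were at Chgb, a secretory granule protein gene (6.60), Lrrc61 (5.95), Bcan, a brain matrix protein gene (5.41), Barhl1 (4.86), Cpne4 (4.84) and Grik5, a glutamate receptor gene (4.40). Their Rbpj folds were 4.20 to 10.5, their local input was 1.40 to 4.08 times the mean, and 4 of the 11 lay in H3K4me3.

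Members were unevenly spread over the chromosomes. On chromosome 15, 137 of 1230 Rbpj peaks were members (11.1%, 9.43 to 13.0), against 3.21 to 8.21% on the other autosomes. Control reads over its Polycomb-like segments were also higher, at 23.7 per kb against 16.7 to 17.8, while ChIP reads were 23.0 per kb against 21.0 to 22.3. The median segment fold was lower, 1.77 against 2.17 to 2.40, and the segments were wider, 5.6 kb against 4.2 to 4.8 kb. Of the chromosome 15 members, 72 (52.6%) lay in segments in the upper 50% by fold, against 710 (72.7%) elsewhere. The part of the higher control reads in this member share was not tested. Without it 977 of 19763 Rbpj peaks (4.94%) were members.

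**Figure D5:**
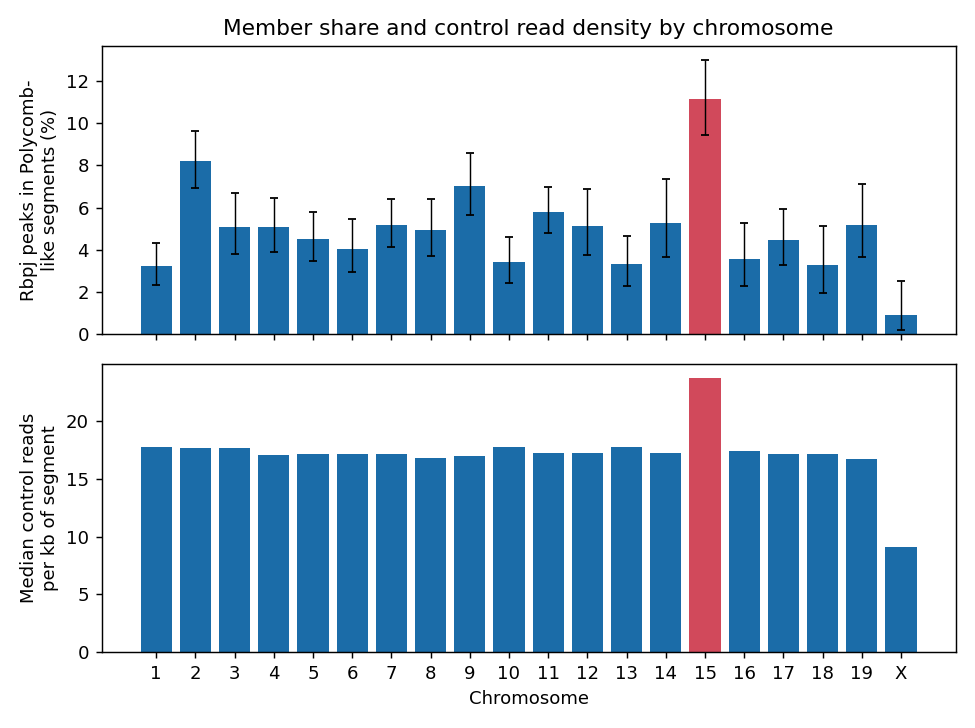
Share of Rbpj peaks that are members (upper panel, %, with exact 95% intervals) and median control reads per kb of Polycomb-like segment (lower panel) on each chromosome (x axis). Chromosome 15, in red, is highest in both, at 11.1% and 23.7 reads per kb.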

How the data were processed

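Factor peaks were called by the authors with MACS version 2.0.10.20120913, per the file headers, against the input of the same line, with a p-value limit of 1e-05, 1 tag kept per position and windows of 1000 and 10000 bp for local background. Reads were pooled in the HA line, per its file headers. The tools in the submitters' processing notes are SICER 1.1, HOMER 4.2, MACS2 2.0.10, FastQC 0.10.0 and Bowtie 0.12.7, and the build there is mm10. Each deposited peak has a pileup signal, a fold enrichment (a ratio) and a −log10 p. Each deposited histone segment has read counts for ChIP and control, a ratio of them and a p-value. Segment widths are multiples of 200 bp, and segment starts and ends were both shifted by 1 to count from 1. The fold and −log10 values are the authors' and were used to describe and rank regions inside 1 list.

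Overlaps of at least 1 bp, distances and shares were computed in Python 3.11.15 with numpy 2.4.6, pandas 2.3.3 and scipy 1.17.1, and the overlap and motif code was tested on simulated data. Local input was recovered as (pileup + 1) / fold − 1. Genes came from a RefSeq table of GRCm38.p6, the same build as mm10, with 21887 coding genes. It gives gene spans without exons, so a gene end is either end of the span. Promoter windows matched 17469 coding genes (79.8%). All 382 genes of the 14 lists matched by symbol.

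Named genes followed a fixed rule: the gene nearest the 12 strongest members by −log10 p with H3K4me3 and the 12 strongest without it, up to 8 genes per list with a member within 5 kb, the genes under the 5 segments with most members, the gene nearest up to 8 members with HA-Zmiz1 or ICN1, and 10 Notch-related genes whatever their values. Of these, 1 gene is not reported here. The members, lists and rules were chosen with earlier results of these data known. The alternatives were a stricter p, an overlap of 50% of the peak, the upper 50% of every histone list by fold, peaks merged within 1 kb, exclusion of high-input peaks, gene ends within 5 kb and, added after the data were seen, exclusion of chromosome 15 and the upper 50% of the Polycomb-like list alone.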

Additional observations from a re-analysis of the deposited data

How the results depend on the processing

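Of 50 recomputed values, 31 stayed within the counting interval of the main share or, for the number of members, within 1.5 times, and 19 did not. With peaks at p of 1e-10 or less there were 554 members, 74.7% in H3K4me3, 58.5% in H3K4me1, 37.9% in acetylation-like segments and 5.05% with HA-line ICN1. That last share was 28 of 554, against 1.71% outside. High-input peaks were kept in it, and only 4 low-input members had HA-line ICN1 at the authors' p limit. Requiring overlap of 50% of the peak gave 29.2% in acetylation-like segments. With every histone list limited to its upper 50% by fold, which thins the other marks as well, the shares were 59.5% for H3K4me3, 19.8% for H3K4me1, 14.6% for the acetylation-like mark, 3.45% for HA-Zmiz1, 0.512% for HA-line ICN1 and 45.7% for gene ends. With the Polycomb-like list alone so limited, the acetylation-like share was 27.6%, and those for HA-Zmiz1 (3.45%), HA-line ICN1 (0.512%) and gene ends (45.7%) were the same by construction. Without high-input peaks HA-Zmiz1 was at 3.45% and HA-line ICN1 at 0.373%. With gene ends within 5 kb the share was 66.7% against 59.2% outside. The direction against other Rbpj peaks turned for HA-line ICN1 without high-input peaks, in the upper 50% (0.512% against 1.90%) and on merging (2.11% against 2.25%). For H3K4me1 it turned at the stricter p (58.5% against 56.2%), and for gene ends in the upper 50% (45.7% against 44.2%), on merging (42.5% against 41.2%) and within 5 kb. None of the shares left its interval on merging peaks or on leaving out chromosome 15. The causes of these moves were not tested. No paired analysis was possible because each target had 1 library per line. Depth limits the absent overlaps: a member without a peak of another factor may lie under that library's calling limit.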
